A study of Mus musculus with 21 samples.

Results

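The genes described here encode heat shock proteins, chaperones of the endoplasmic reticulum (ER) and the main factors that switch these chaperones on. They were chosen by their names, and the rule uses no measured value, although it was written with earlier results of these data known. The set held every gene of the expression table whose symbol begins with Hspa, Hspb, Hspd, Hspe, Hsph, Hsp90, Dnaja, Dnajb, Dnajc, Pdia or Cct (Cct2 to Cct8) followed by a number, together with Canx, Calr, Ddit3, Atf4, Atf6, Xbp1, Ern1, Eif2ak3, Herpud1, Hsf1 and Hyou1. This gave 96 of the 22050 entries in the table. Of these, 90 had at least 1 read in a sample and 82 had a mean normalised read count of at least 1 and were tested, of 12782 genes tested in all.

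The study asked how prolonged expression of the cell-cycle inhibitor p16 changes the keratinocytes that carry it. In K5-rtTA/tet-p16/tet-GFP mice, doxycycline switches on human p16 (the product of CDKN2A) and GFP in cells that use the keratin 5 promoter, which are mainly basal keratinocytes of the epidermis and hair follicle. K5-rtTA/tet-GFP control mice carry the same rtTA driver and received the same doxycycline, so they differ by the tet-p16 transgene. Both groups were of a mixed FVB, C57Bl and 129sv background and were kept on doxycycline for 6 months from an age of 3 weeks. Dorsal skin was dissociated, cells carrying CD140a, CD45 or CD31 were gated out, and 80000 GFP+ cells pooled from 3 mice made up each of the 4 control and 4 p16 samples. The driver does not reach every keratinocyte, and GFP marks a cell that responded to doxycycline, so a GFP+ cell of a p16 mouse is not shown by its sorting to hold p16. A later profiling in the same series (13 samples) was not analysed here.

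Chaperones bind unfolded protein and help it to fold. The HSP70 proteins do so in cycles of ATP use that J-domain proteins start, HSP90 proteins act on clients such as kinases and receptors at a late step, and small heat shock proteins hold aggregating proteins without using ATP. When unfolded protein builds up in the cytosol, the transcription factor HSF1 binds heat shock elements in front of chaperone genes. When it builds up in the ER, the sensors encoded by Ern1 (IRE1), Eif2ak3 (PERK) and Atf6 start the unfolded protein response, in which ATF6 and XBP1 bind ER stress response elements, and ATF4 and its target Ddit3 (CHOP) act in the arm that also lowers protein synthesis. Keratinocytes make large amounts of keratin and express small heat shock proteins as they differentiate.

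The promoter sequences below are shown because elements of the ER response and of HSF1 can be read in them directly. They come from RefSeq on GRCm38.p6, which had a window of 250 bases before to 50 bases after the start for 78 of the 96 genes and for 27025 genes in all. Both strands were searched with 3 patterns. The ER stress response element was taken as CCAAT, 9 bases of any kind, then CCACG. ER stress response element II was taken as ATTGG, 1 base of any kind, then CCACG, and the heat shock element as GAA, 2 bases, TTC, 2 bases, GAA, or the same alternation beginning with TTC. The ER patterns share the letters CCACG but differ in spacing, so a match to the first is not a match to the second. No mismatch was allowed and only this 300-base window was searched, so a gene without a match may still hold such an element. Genes without a window were not searched.

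The ER stress response element was found in 6 of the 78 genes (7.69%) and in 37 of all 27025 genes (0.137%). These 6 genes encode the HSP70 of the ER (Hspa5, also called BiP), the HSP90 of the ER (Hsp90b1), the lectin chaperones calreticulin (Calr) and calnexin (Canx), the disulfide isomerase Pdia6 and the ER J-domain protein Dnajc3. Each sequence is written 5′ to 3′ on the strand of its gene, with the match in capitals. A match that reads CGTGG first is the same element on the opposite strand. A match is a description of letters, and binding was not measured.
Hspa5, chr2:34772005-34772063, plus strand: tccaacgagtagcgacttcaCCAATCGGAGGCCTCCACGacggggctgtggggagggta
Calr, chr8:84847055-84847113, minus strand: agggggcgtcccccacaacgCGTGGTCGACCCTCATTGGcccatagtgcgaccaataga
Canx, chr11:50325780-50325838, minus strand: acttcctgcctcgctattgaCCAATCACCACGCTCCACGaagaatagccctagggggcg
Pdia6, chr12:17266471-17266529, plus strand: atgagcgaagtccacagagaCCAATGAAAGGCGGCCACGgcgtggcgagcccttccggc
Dnajc3, chr14:118937807-118937865, plus strand: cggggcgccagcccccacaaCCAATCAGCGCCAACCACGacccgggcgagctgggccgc
Hsp90b1, chr10:86705513-86705676, minus strand, with 2 matches: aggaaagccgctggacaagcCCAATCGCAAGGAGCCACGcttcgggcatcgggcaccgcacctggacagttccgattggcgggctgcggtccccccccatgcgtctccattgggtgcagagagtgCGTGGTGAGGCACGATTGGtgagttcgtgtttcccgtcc

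ER stress response element II was found in 2 of the 78 genes (2.56%), Herpud1 and Dnajb11, and in 12 of all genes (0.0444%). Herpud1 encodes an ER membrane protein of the degradation pathway for misfolded proteins, and its match lay 52 to 42 bases before the start. In Dnajb11 the match lay after the start. The heat shock element was found in 4 genes (5.13%), against 179 of all genes (0.662%). Hspd1 and Hspe1, which encode the mitochondrial chaperonin HSP60 and its lid HSP10, lie head to head on chromosome 1 and share a single stretch with 2 overlapping matches, shown here on the strand of Hspe1. The J-domain gene Dnajb6 held a match too, and that of Hsph1 (HSP110) lay after its start.
Herpud1, chr8:94386357-94386407, plus strand: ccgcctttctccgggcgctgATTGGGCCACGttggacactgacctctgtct
Hspe1 and Hspd1, chr1:55088039-55088096, plus strand: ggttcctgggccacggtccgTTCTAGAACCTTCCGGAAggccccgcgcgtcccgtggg
Dnajb6, chr5:29735832-29735884, plus strand: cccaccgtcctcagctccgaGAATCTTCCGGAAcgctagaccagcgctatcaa

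Some properties of the libraries bear on every value below. Total reads on genes ran from 1760953 to 3414362 in control samples and from 2884544 to 3202975 in p16 samples, so that 3 reads corresponded to a normalised count of 2.23 to 4.58. In the 4 control libraries the p16 transgene had 0.7, 1.3, 2.5 and 1.5 normalised counts. In the 4 p16 libraries it had 1.6, 10.1, 16 and 7.4. Values are in the order of replicates 1 to 4, as in all lists below. For this gene the library labelled p16 replicate 1 lay within the controls, at a count below the 2.40 that 3 reads made there. The exact two-sided permutation test gave p = 0.0571. The library of p16 replicate 4 stood apart from its group: over all genes, the chi-square per degree of freedom of its read counts against the other p16 libraries was 6.75 to 8.96, against 3.05 to 3.31 among those libraries and 3.64 to 5.33 among controls. Krt5, a defining gene of basal keratinocytes, had a normalised count of at least 9045.9 in each library. The 7 basal keratinocyte markers moved both ways, with 4 above control and 3 below. Krt15 was called lower (log2 difference -0.56, limma adjusted p = 0.0463), and 0 were called higher. EGFP, the marker used for sorting, was lower in p16 samples, at 4152.0, 5798.2, 5458.0 and 5912.6 in control and 3624.4, 3978.8, 3161.8 and 3453.3 in p16 samples (log2 difference -0.58, limma adjusted p = 0.0167). The lists of cells that the sort should remove were low in sum but not empty. Fibroblast markers summed to 36.7 to 116 in control and 48.6 to 231 in p16 samples, and moved both ways: Dcn was called higher (5.9, 2.6, 4.2 and 10.7 in control, 85.6, 89.8, 203.0 and 36.2 in p16 samples) and Vim lower (mean 58.0 against 11.8), while Lum was at 0 in all 8 libraries. Langerhans and myeloid markers, mainly Cd74 and the H2 genes, summed to 133 to 159 in control and 144 to 191 in p16 samples, with none called, Cd207 at up to 0.8 and at 1.8 to 4.7 without overlap, and Lyz2 at 0. T cell markers summed to 7.60 to 18.0 and 4.50 to 14.1, and endothelial markers to 2.6 to 5.2 and 5.5 to 8.9, with Cdh5, Emcn and Kdr at 0. Marker lists of other epidermal cells differed between the groups. All 6 tested sebaceous gland markers were below control, 5 of them called, with a summed count of 1430 to 1631 in control and 484 to 735 in p16 samples. All 8 hair follicle markers were below control, 5 of them called (14116 to 20792 against 10997 to 14806), as were all 6 tested melanocyte markers, 2 of them called (131 to 530 against 51.7 to 143). Of 7 differentiated keratinocyte markers, 1 was called higher and 2 lower. The part of these cells in the chaperone values was not tested, and in bulk samples fewer cells of a type and less RNA per cell cannot be told apart.

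No gene of the set passed the test between p16 and control cells. With limma and an adjusted p under 0.05, 0 of the 82 genes were called, where 3.86% of all genes tested were. At an unadjusted p under 0.05 there were 10 genes (12.2%), against a background of 15.9%. Of these, 3 (3.66%) were higher in p16 cells and 7 (8.54%) lower, where 7.02% and 8.93% of all genes were. Count tests on the recovered reads also called none, with 3 genes higher and 6 lower at an unadjusted p under 0.05 in edgeR and 2 higher and 5 lower in DESeq2. These unadjusted limma counts moved with single libraries: 1 gene was higher without control replicate 2, control replicate 3, p16 replicate 1 or p16 replicate 4, and 4 were lower without control replicate 1 or control replicate 2 and 3 without p16 replicate 1. Values of the groups did not overlap for 3 genes (3.66%), against 9.83% of all genes. These were Cct2, Dnajc16 and Hspb2, and Hspb2 had at most 3 reads in any sample.

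The absence of calls came with narrow intervals for most of the genes. The 95% interval of the difference lay within 1.5-fold in either direction for 57 of the 82 genes and within 2-fold for 76. Of the 50 genes with a mean normalised count of at least 100, 42 were within 1.5-fold. The median difference was -0.05 on the log2(normalised count + 1) scale, beside -0.003 over all genes tested, and 52 genes lay below 0 and 30 above (63.4% below, against 50.4% of all genes). Without p16 replicate 4 the median was -0.02 and 51 of the 82 genes lay below 0, and with every sample scaled to the same total the median was -0.01. The genes together took 1.28%, 1.19%, 1.28% and 1.30% of the reads in the control libraries and 1.20%, 1.33%, 1.24% and 1.14% in the p16 libraries, which overlap (exact two-sided permutation p = 0.400).

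**Figure D1:**
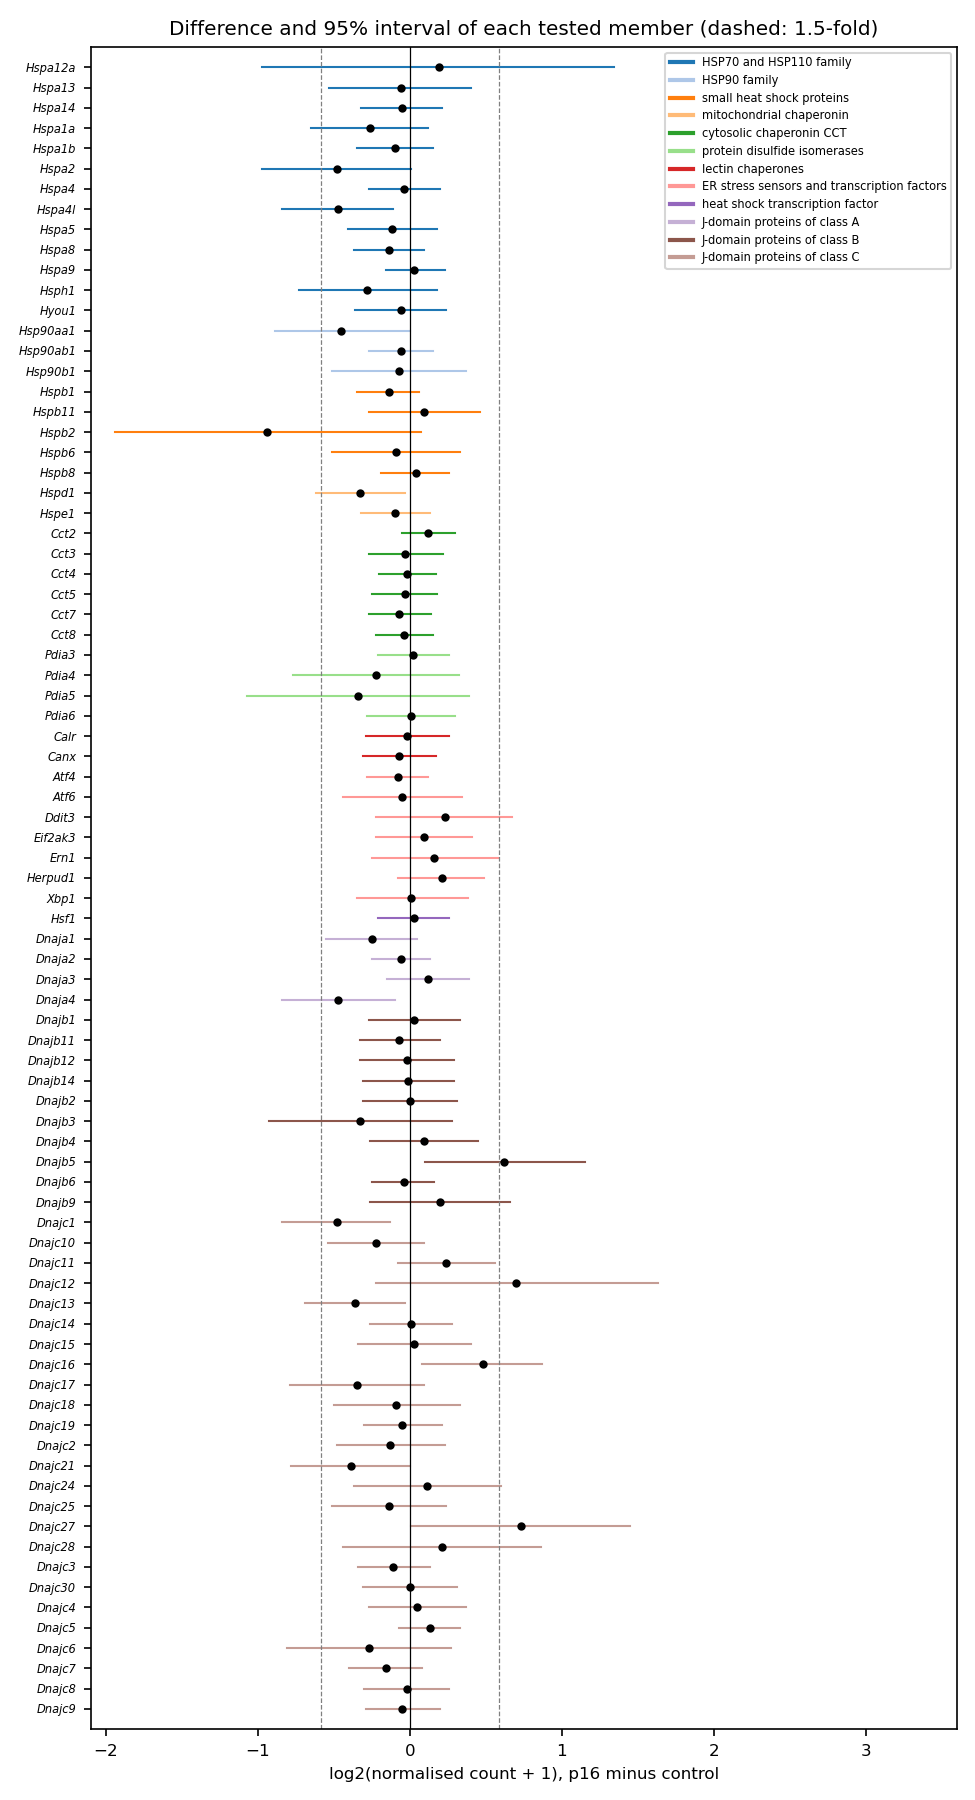
Difference between p16 and control samples of each of the 82 tested genes on the log2(normalised count + 1) scale (points) with its 95% interval from limma (lines), coloured by role, with dashed lines at 1.5-fold. The intervals of 57 genes lie between the dashed lines, and the widest belong to genes with few reads such as Hspa12a and Hspb2.

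Among the HSP70 and HSP110 genes, 13 of 15 were tested, 11 lay below 0 and 2 above, and the median difference was -0.10. Hspa8 encodes the constitutive HSP70 of the cytosol. It had 2429.5, 2217.6, 2579.1 and 3096.9 normalised counts in control and 2288.3, 2474.2, 2418.8 and 2146.0 in p16 samples. The groups overlapped, with the highest value in control replicate 4 and the lowest in p16 replicate 4, and the log2 difference was -0.14 (95% interval -0.37 to 0.09, limma adjusted p = 0.605). Hspa1a and Hspa1b encode the stress-inducible HSP70. Hspa1b measured 1224.0, 1056.2, 1173.5 and 1514.1 in control and 1153.8, 1015.0, 1113.6 and 1317.2 in p16 samples, again overlapping (log2 difference -0.10, interval -0.35 to 0.15). Hspa1a measured 310.1, 310.6, 316.5 and 516.4 in control and 327.0, 226.4, 270.4 and 378.2 in p16 samples. Its log2 difference of -0.26 (interval -0.65 to 0.12, adjusted p = 0.529) was -0.08 without control replicate 4, the library that held the highest count of both genes, and -0.14 without p16 replicate 2. It was -0.38 without p16 replicate 4 and -0.33 without control replicate 1 or control replicate 2. The pair lie on chromosome 17 and had 84.3% identity over their whole transcripts. Over the last 500 bases, the end from which the protocol makes its cDNA, identity was 46.8%, against 47.0% for Hspa1a and Hspa8. How reads that match both genes were counted is not given in the sources used here, so some uncertainty in their separate levels remains.

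Hsph1 encodes HSP110, which recharges HSP70 with ATP. It had 168.4, 128.3, 161.2 and 296.4 counts in control and 137.5, 171.0, 176.4 and 115.1 in p16 samples, and was among the 5 genes that varied most within a group of those with a mean of at least 20. Control replicate 4 was far above every other library, as for Hspa1a, and the log2 difference of -0.28 was -0.04 without it, -0.16 without p16 replicate 4 and -0.44 without control replicate 2. Hspa4l, another HSP110 relative, measured 253.7, 252.8, 277.3 and 201.7 in control and 185.5, 206.1, 214.6 and 116.8 in p16 samples. All but control replicate 4 of the controls exceeded the p16 samples. The log2 difference was -0.47 ± 0.17 (SE, 4 samples per group) with an unadjusted p of 0.0150 and a limma adjusted p of 0.172, and -0.28 (adjusted p = 0.272) without p16 replicate 4, the lowest library. With the replicate number as a block it passed the threshold (adjusted p = 0.0263), although the numbers did not pair the samples. Hspa9, the mitochondrial HSP70, had a mean of 319 ± 20.9 in control and 326 ± 14.0 in p16 samples (SD, n = 4), with a narrow interval of -0.16 to 0.23. Hspa2, known for its role in male germ cells, was another of these 5 genes, from 28.9 to 58.5 in control and from 24.8 to 28.9 in p16 samples (log2 difference -0.48, adjusted p = 0.321). Without control replicate 3, the highest library, the difference was -0.26 (adjusted p = 0.622).

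The HSP90 genes gave an example of a single library that set a value. Hsp90aa1 encodes the inducible cytosolic form. It measured 1379.1, 1270.5, 1147.6 and 1309.3 in control and 977.1, 1248.4, 1194.3 and 522.1 in p16 samples. Within the p16 group, replicates 2 and 3 lay among the controls, replicate 1 lay below them and replicate 4 was lower than any other library, so that the log2 difference of -0.45 (unadjusted p = 0.0484, adjusted p = 0.307) was -0.17 (adjusted p = 0.496) without it. Hsp90ab1, the constitutive form, did not show this: it had 3146.1, 3557.5, 3288.2 and 3899.0 counts in control and 3044.7, 3463.5, 3491.7 and 3319.3 in p16 samples. Its log2 difference was -0.06 with an interval of -0.27 to 0.15.

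The small heat shock proteins include HSPB1 (HSP27), which keratinocytes make as they differentiate, and HSPB8, which works with BAG3 in clearing aggregates. Of 8 genes, 5 were tested. Hspb1 measured 2617.9, 2520.5, 2983.3 and 2835.6 in control and 2441.8, 2690.5, 2247.7 and 2548.0 in p16 samples, which overlapped (log2 difference -0.14, interval -0.35 to 0.06, adjusted p = 0.518). Hspb8 measured 1066.0, 1052.3, 902.0 and 899.9 in control and 972.3, 869.0, 1059.6 and 1128.1 in p16 samples, and its interval of -0.19 to 0.26 covered no change of 1.5-fold. Hspb6 had far fewer reads, with 26.8 ± 2.22 in control and 25.2 ± 3.21 in p16 samples (SD, n = 4). Hspb9 was at 0 in every sample, and Hspb3 and Hspb7 had at most 2 reads.

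The mitochondrial chaperonin genes share a promoter but did not have the same values. Hspd1 measured 380.6, 359.3, 400.9 and 414.0 in control and 280.6, 405.2, 334.3 and 241.7 in p16 samples. All p16 samples but p16 replicate 2 were below the controls, with an unadjusted p of 0.0319, an adjusted p of 0.253 and a log2 difference of -0.33 (interval -0.62 to -0.03) that was -0.21 (adjusted p = 0.453) without p16 replicate 4. Hspe1 measured 1301.9, 1099.8, 1254.5 and 1503.4 in control and 1133.0, 1340.6, 1197.9 and 1129.7 in p16 samples, with a log2 difference of -0.10 (interval -0.32 to 0.13). Whether the pair differed from each other in their response was not tested. The cytosolic chaperonin CCT is a ring that folds actin and tubulin. Its 6 tested genes in the set were Cct2, Cct3, Cct4, Cct5, Cct7 and Cct8. Their intervals were narrow, and ran from -0.27 at the lowest to 0.30 at the highest. Of these 6, only Cct2 lay above 0. It measured 531.9, 564.7, 541.2 and 553.1 in control and 591.7, 595.7, 571.0 and 627.3 in p16 samples. These did not overlap, but the log2 difference was 0.12 and the adjusted p was 0.524. Tcp1, a gene of the ring outside the naming rule, had a log2 difference of 0.16 (interval -0.04 to 0.36, limma adjusted p = 0.457).

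**Figure D2:**
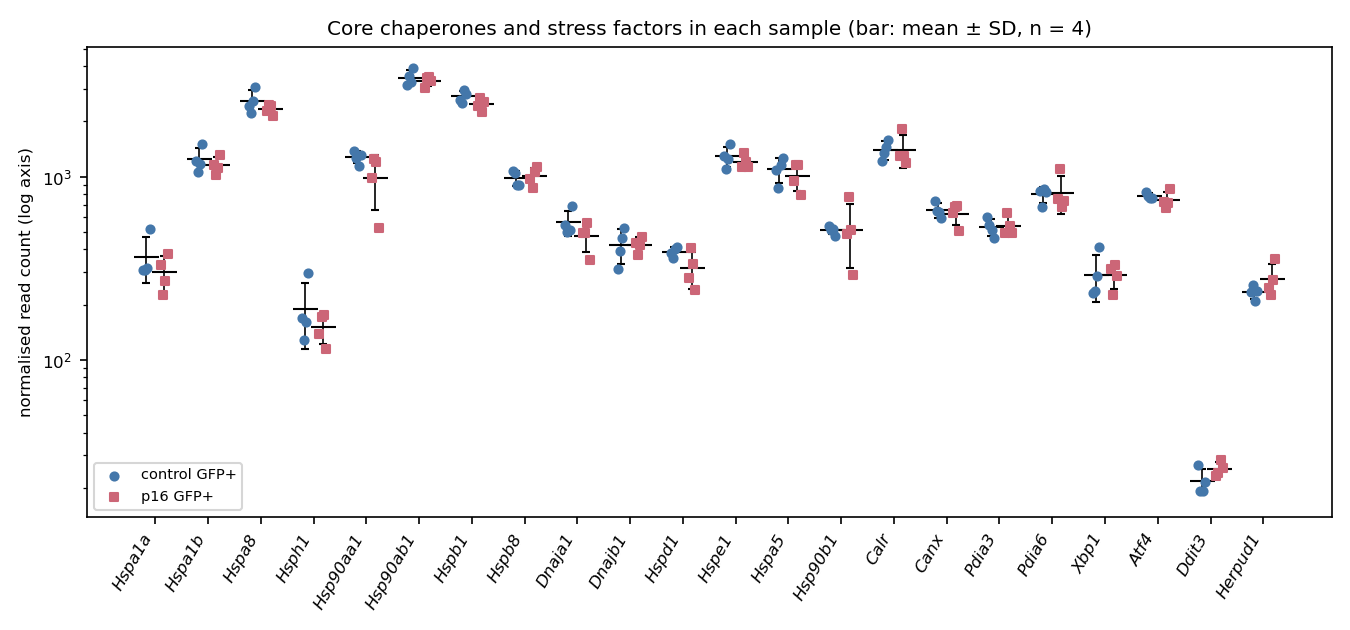
Normalised read count (log axis) of 22 core chaperone and stress-factor genes in the 4 control (circles) and 4 p16 samples (squares), with the mean ± SD of each group. The groups overlap for every gene shown, and the low square of Hsp90aa1 (522.1) is p16 replicate 4 and the high circle of Hsph1 (296.4) is control replicate 4.

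The ER chaperones that carry the ER stress response element in their promoters had close group means in p16 and control cells. Hspa5, a common readout of the unfolded protein response, measured 1086.8, 867.5, 1152.6 and 1268.1 in control and 945.9, 1150.8, 1155.3 and 793.4 in p16 samples. The groups overlapped, with a log2 difference of -0.12 (interval -0.41 to 0.18, adjusted p = 0.763) that was -0.01 without p16 replicate 4. Hsp90b1 (GRP94) measured 538.6, 508.2, 519.5 and 475.1 in control and 487.7, 769.0, 508.1 and 290.2 in p16 samples. Controls were tight, and both the highest and the lowest library of the 8 were p16 samples, replicates 2 and 4. Calr measured 1210.7, 1341.1, 1452.4 and 1585.9 in control and 1288.1, 1811.4, 1287.4 and 1193.0 in p16 samples, and Pdia6 measured 837.5, 681.5, 857.7 and 825.0 in control and 750.0, 1097.0, 681.8 and 740.0 in p16 samples. As for Hsp90b1, the highest value of both genes was that of p16 replicate 2. Canx, which holds glycoproteins at the ER membrane, had a mean of 655 ± 59.0 in control and 628 ± 85.3 in p16 samples. Dnajc3, an inhibitor of PERK and co-chaperone of BiP, measured 238.9, 240.0, 243.0 and 236.8 in control and 238.3, 234.2, 240.3 and 183.4 in p16 samples, so that 7 of the 8 libraries lay between 234.2 and 243.0. The log2 differences were -0.07 for Hsp90b1, -0.02 for Calr, 0.01 for Pdia6, -0.07 for Canx and -0.11 for Dnajc3. Each interval contained 0.

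The other ER folding genes of the set also overlapped between the groups. Hyou1, an ER HSP110, had a mean of 128 ± 20.7 in control and 122 ± 13.8 in p16 samples. Pdia3, the isomerase that works with calnexin and calreticulin, had 530 ± 58.7 and 539 ± 66.6. Pdia4 was low, at 18.8 ± 2.27 and 16.4 ± 5.24 (SD, n = 4 for each), and its interval of -0.77 to 0.32 reached beyond 1.5-fold.

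The sensors and transcription factors of the ER response had a median difference above 0 (0.09, with 5 of 7 genes above), but none was called and every interval contained 0. Ern1, whose product splices Xbp1 mRNA, measured 36.3, 28.2, 41.8 and 30.6 in control and 37.6, 45.3, 31.0 and 39.5 in p16 samples (log2 difference 0.16, adjusted p = 0.765). Xbp1 measured 230.7, 237.4, 284.8 and 411.0 in control and 312.6, 224.9, 329.8 and 287.8 in p16 samples (0.01), with the highest value in control replicate 4. Gene counts of this kind do not show whether Xbp1 was spliced. Atf6 measured 111 ± 24.8 in control and 107 ± 22.3 in p16 samples (-0.05), and Eif2ak3 70.4 ± 8.61 and 75.2 ± 9.53 (0.09). Atf4, which is controlled largely by translation, measured 826.4, 785.4, 763.4 and 763.9 in control and 730.8, 670.7, 721.7 and 860.0 in p16 samples. Here p16 replicates 1 to 3 lay below all controls and p16 replicate 4 above them (log2 difference -0.08, and -0.15 with adjusted p = 0.460 without that library). Ddit3, the pro-apoptotic target of ATF4, measured 26.7, 19.3, 19.2 and 21.4 in control and 23.2, 24.2, 28.4 and 25.5 in p16 samples, overlapping through control replicate 1 (0.23, interval -0.22 to 0.67, adjusted p = 0.669). Herpud1 measured 232.9, 256.7, 210.5 and 238.3 in control and 247.1, 224.9, 271.3 and 356.0 in p16 samples. Its log2 difference of 0.21 (adjusted p = 0.494) was 0.08 without p16 replicate 4, the highest library. Hsf1, the factor of the cytosolic response, measured 128 ± 9.29 in control and 130 ± 8.04 in p16 samples (SD, n = 4, interval -0.21 to 0.26).

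The J-domain proteins made up the largest share of the set, with 4 genes of class A, 10 of class B and 25 of class C among the 82 tested. They held 7 of the 10 genes with the smallest p. Of class A, whose members resemble bacterial DnaJ along their whole length, all 4 were tested, with a median difference of -0.16. Dnaja1 measured 546.7, 500.5, 511.1 and 687.5 in control and 489.3, 492.7, 560.4 and 351.9 in p16 samples (log2 difference -0.25, adjusted p = 0.414). As in Hsp90aa1, p16 replicate 4 was the lowest library, and the difference was -0.12 (adjusted p = 0.710) without it and -0.15 without control replicate 4, the highest. Dnaja4 measured 152.8, 112.9, 86.9 and 134.4 in control and 79.2, 104.6, 86.9 and 75.6 in p16 samples. The groups overlapped through control replicate 3, with a log2 difference of -0.47 (unadjusted p = 0.0162, adjusted p = 0.178).

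Of class B, 10 of 13 genes were tested, 5 above and 5 below 0. Dnajb1 (HSP40), the partner of the inducible HSP70, measured 311.6, 394.0, 461.0 and 527.1 in control and 435.8, 372.4, 422.9 and 469.5 in p16 samples, with a log2 difference of 0.03 (interval -0.27 to 0.33). Dnajb9, an ER J-domain protein that holds IRE1 inactive, measured 37.0 ± 10 in control and 41.7 ± 5.62 in p16 samples. Dnajb5 had the largest positive difference of the class, at 17.1, 15.4, 13.4 and 16.8 in control and 28.8, 26.5, 16 and 29.6 in p16 samples. All p16 samples but p16 replicate 3 exceeded the controls (log2 difference 0.62 ± 0.24, SE, 4 samples per group, unadjusted p = 0.0233, adjusted p = 0.214).

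Of class C, whose members share only the J domain, 25 of 28 were tested, 11 above and 14 below 0. Dnajc1, a J-domain protein of the ER membrane, had the smallest p of the whole set. It measured 287.8, 219.5, 190.4 and 204.7 in control and 158.3, 207.7, 165.8 and 117.6 in p16 samples, with a log2 difference of -0.48 ± 0.17 (unadjusted p = 0.0114, adjusted p = 0.147). Only p16 replicate 2 reached the controls, and without p16 replicate 4 the difference was -0.34 (adjusted p = 0.263). Dnajc13, which acts on endosomes, measured 99.4, 125.8, 78.5 and 90.1 in control and 72.8, 77.3, 83.3 and 69.1 in p16 samples (-0.36, adjusted p = 0.260), and its difference was -0.23 without control replicate 2. Dnajc21, a ribosome biogenesis factor, measured 152.8, 129.6, 136.1 and 105.4 in control and 81.6, 129.6, 120.6 and 74.0 in p16 samples (-0.39, adjusted p = 0.308), with a gap that rested on p16 replicates 1 and 4. Dnajc16 was higher in every p16 sample, at 30.4, 25.7, 38.4 and 39.7 in control and 47.2, 46.1, 49.7 and 42.8 in p16 samples. Its log2 difference was 0.48 (exact permutation p = 0.0286, the smallest that 4 against 4 samples can give, and adjusted p = 0.204). Dnajc27, a low gene, measured 11.1, 5.1, 9.2 and 10.7 in control and 15.2, 24.2, 8.9 and 15.6 in p16 samples (0.73, adjusted p = 0.301). Dnajc6 (auxilin), which uncoats clathrin vesicles, was among the 5 most variable genes with a mean of at least 20, from 21.7 to 50.4 in control and from 25.5 to 40.0 in p16 samples (-0.27, adjusted p = 0.683). Its difference was -0.53 without control replicate 3, -0.17 without control replicate 2 and -0.13 without control replicate 1.

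Single libraries stood out for several genes at once. Of the 82 tested genes, p16 replicate 4 was the lowest of the 8 libraries for 23 (28.0%, against 19.4% of all genes tested) and the highest for 13 (15.9%, against 18.0%). Among the 50 genes with a mean of at least 100, it lay at least 20% below every other library for 7, namely Dnajc1, Hsp90aa1, Hspa4l, Dnaja1, Dnajc3, Dnajc2 and Hsp90b1, and at least 20% above for Herpud1. Control replicate 4, the library with the fewest reads, was the highest for 20 genes (24.4%, against 15.6%), by at least 20% for Hspa1a and Hsph1, both induced by HSF1. The library of p16 replicate 2 was the highest by at least 20% for Pdia6 and Hsp90b1, which both hold the ER stress response element. Of the other genes with that element, it was the highest for Calr but not for Hspa5, Canx or Dnajc3. It was the lowest of the 8 libraries for Atf4 and Xbp1. The immediate early genes, which rise within minutes of handling cells, had a summed count of 8140 to 9938 in control and 6983 to 9790 in p16 samples, and 0 of the 16 tested were called with limma, with 0 higher and 2 lower (Btg2 and Egr2) at an unadjusted p under 0.05. The sum hides genes that were low in p16 replicates 3 and 4. Fos measured 557.1, 426.1, 407.6 and 469.0 in control and 660.4, 576.2, 151.6 and 98.7 in p16 samples, and Fosb measured 135.0, 91.1, 79.3 and 97.8 in control and 190.3, 178.8, 41.7 and 50.2 in p16 samples. Dusp1 was likewise lowest in p16 replicates 3 and 4, at 272.2 and 276.3 against 375.0 or more in the other libraries. The part of these genes in the library differences was not tested.

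**Figure D3:**
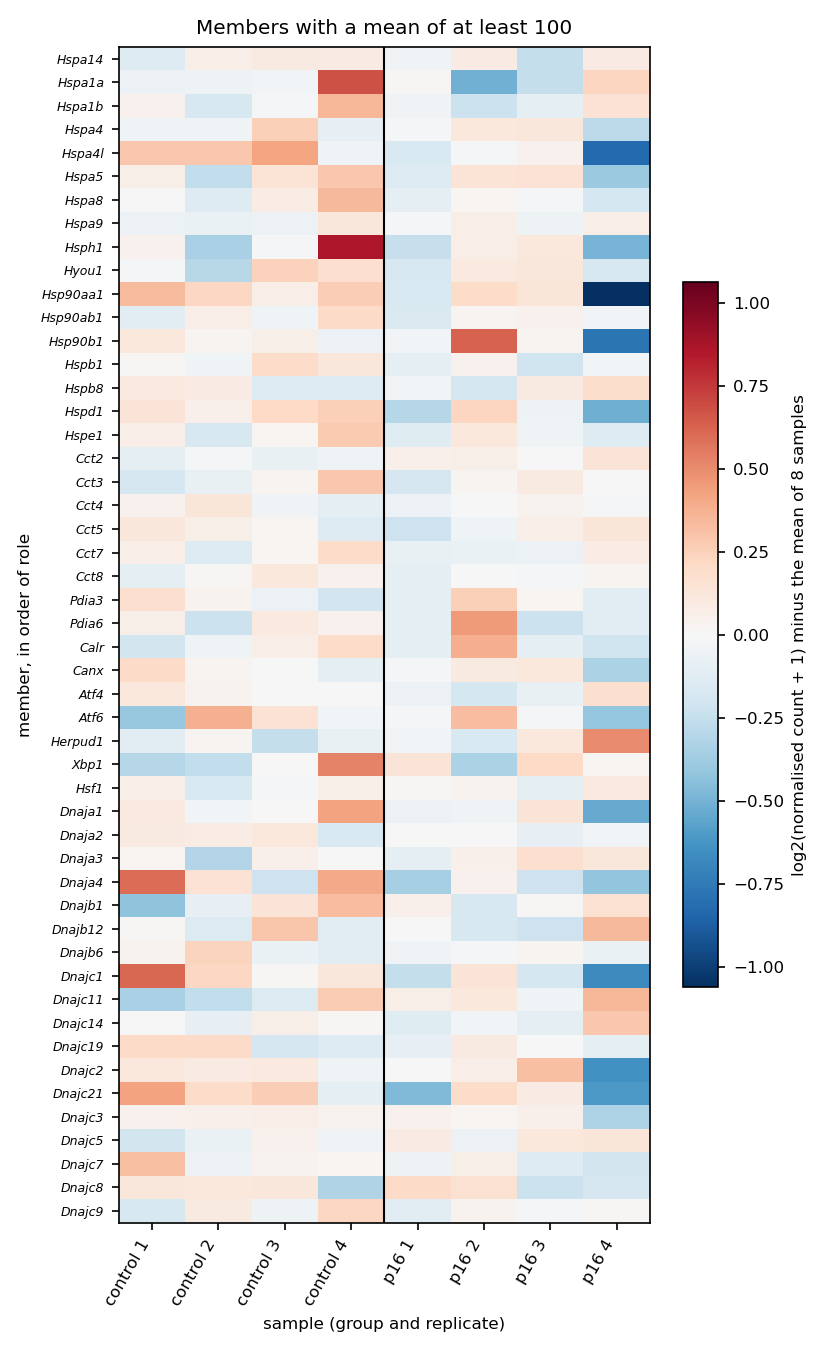
Deviation of each of the 50 genes with a mean of at least 100 from its mean over the 8 samples on the log2(normalised count + 1) scale, for control replicates 1 to 4 (left of the line) and p16 replicates 1 to 4 (right). Blue marks values below the mean and red values above it, with dark blue cells in p16 replicate 4 (Hsp90aa1 522.1, Hspa4l 116.8) and dark red cells in control replicate 4 (Hsph1 296.4, Hspa1a 516.4).

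Genes of the same pathways that the naming rule left out were examined next, in lists of co-chaperones and HSF1 targets, of ER folding and degradation factors, and of the integrated stress response. Of 88 listed genes 87 were tested, with a median difference of -0.04, and 2 were called, both lower in p16 cells (3.86% of all genes were called in either direction). At an unadjusted p under 0.05, 1 of the 87 was higher (Sesn2) and 5 were lower (Cryab, Cebpb, Pfdn6, Creld2 and Manf). Over all genes tested, 7.02% were higher and 8.93% lower at that limit. Values of the groups did not overlap for 4 of the 87 (Cryab, Cebpb, Sesn2 and Manf), against 9.83% of all genes. Cryab encodes αB-crystallin, a small heat shock protein that the symbol-based rule missed. It fell from 126.1, 74.4, 71.0 and 87.1 in control to 26.4, 53.9, 19.5 and 27.1 in p16 samples, without overlap. The log2 difference was -1.53 ± 0.27 (SE, 4 samples per group, limma adjusted p = 0.00499, exact permutation p = 0.0286, the smallest possible), and it was called in each of 17 other settings, with adjusted p between 5.12e-05 and 0.0283. Without p16 replicate 4 the difference was -1.49. Its neighbour on chromosome 9 is Hspb2, which starts in the opposite direction and overlaps it (Cryab 50751325 to 50756636 on the plus strand, Hspb2 50751078 to 50752354 on the minus strand, GRCm38). Hspb2 had 1.5, 1.3, 2.5 and 3.1 counts in control and 0.8, 0.8, 0.9 and 0.0 in p16 samples, all at 3 reads or fewer, so no fold is given. The sebaceous gland, hair follicle and melanocyte markers were lower in p16 samples too, as given above, and their part in the Cryab difference was not tested.

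Cebpb encodes a transcription factor that acts in keratinocyte differentiation and with ATF4 in the stress response. It fell from 842.0, 915.0, 915.4 and 980.8 in control to 580.5, 705.8, 791.8 and 658.6 in p16 samples, without overlap. The log2 difference was -0.42 ± 0.10 (SE, 4 samples per group, limma adjusted p = 0.0339), but the call held in only 10 of 17 other settings. The call was lost without any 1 of the controls (adjusted p 0.0553 to 0.0967) and without p16 replicate 2 (0.0543). It was also lost without p16 replicate 1 (0.135), the library whose p16 transgene, at under 3 reads, lay within the controls. Sesn2, a stress-induced regulator of mTORC1, came closest to a call in the other direction in the main test. It measured 107.6, 136.0, 157.0 and 166.5 in control and 260.7, 172.5, 217.2 and 190.8 in p16 samples (log2 difference 0.57 ± 0.16, adjusted p = 0.0604). With every sample scaled to the same total it was called higher. Without p16 replicate 2, p16 replicate 3 or p16 replicate 4, 1 related gene was called higher. Manf and Creld2 encode ER proteins induced by the unfolded protein response. Manf measured 204.0, 192.5, 230.5 and 265.8 in control and 163.1, 188.2, 190.6 and 168.6 in p16 samples, without overlap but close to it (log2 difference -0.32, adjusted p = 0.186). Creld2 measured 95.7, 71.9, 90.2 and 87.1 in control and 65.6, 64.0, 60.3 and 72.4 in p16 samples (-0.38, adjusted p = 0.172), and control replicate 2 lay just below the highest p16 sample. Sesn2, Manf, Creld2 and Pfdn6 were named after their values were seen. Among other targets of the ATF4 arm, log2 differences were 0.26 for Nupr1 (limma adjusted p = 0.607) and 0.25 for Asns (0.623). They were 0.53 for Atf3 (0.644) and 0.29 for Trib3 (0.763). Atf3 spread from 40.9 to 245.5 in control samples, and Trib3 had at most 8 reads in a sample. Other genes of the integrated stress response list went both ways. Psat1 was at 0.13 (0.647), Cebpg at -0.06 (0.875), Vldlr at -0.07 (0.907) and Phgdh at -0.10 (0.750, limma adjusted p for each). Of the 24 tested genes in the integrated stress response list, 14 lay above 0 and 10 below, with a median of 0.08.

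**Figure D4:**
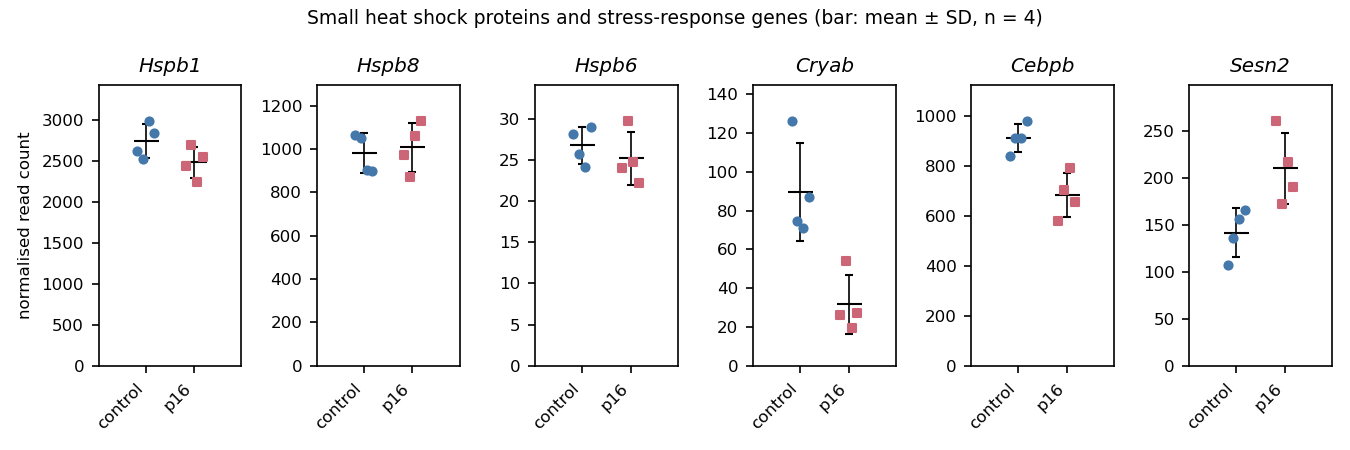
Normalised read count (linear axes from 0) of Hspb1, Hspb8, Hspb6, Cryab, Cebpb and Sesn2 in 4 control (circles) and 4 p16 samples (squares), with the mean ± SD. Groups overlap for Hspb1, Hspb8 and Hspb6. All p16 samples are below the controls for Cryab and Cebpb and above them for Sesn2, which was not called in the main test (limma adjusted p = 0.0604).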

How the data were processed

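Expression was measured by mRNA-seq in 8 samples of sorted GFP+ keratinocytes, grouped by their labels. The authors used an adapted CEL-Seq2 protocol, although the labels of replicate 3 of both groups word the library step differently. Reads were trimmed with Cutadapt per the paper's methods, and the submitters' processing notes name TopHat2, HTSeq, DESeq2 and GRCm38. Annotation version and use of molecular identifiers are not given in the sources used here. The deposited signal values are read counts divided by a size factor and rounded to 1 decimal. The table also holds the authors' group means, test statistic and p-values, which were not used.

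Dividing by the value of 1 read gave whole reads for 100% of the values. The test of p16 against control used limma 3.58.1 in R 4.3.3, with a mean-variance trend, on log2(value + 1) of the 12782 genes with a mean of at least 1. Over all genes limma called 493, edgeR with TMM on the recovered reads 459 of 10700 and DESeq2 543 of 15392. Fold changes on this scale understate those of low genes. Benjamini-Hochberg adjustment ran over all genes tested, with calls made under 0.05. P-values measure the spread between samples pooled from 3 mice, which came from 3 independent experiments. Exact permutation tests, whose smallest p is 0.0286, were two-sided. The 3-read limit covers counting error only.

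The genes and lists were chosen with earlier results of these data known. Genes named with values were any called, the 10 with the smallest p, 31 core genes, the 5 most variable within a group of those with a mean of at least 20, and any called related gene. Cct2, Tcp1, Hspb2, Hspb6, Btg2, Egr2, Fos, Fosb, Dusp1, marker genes and the ATF4 targets with the genes given beside them were named after their values were seen. Scripts were tested on simulated data. Alternatives were a pseudocount of 0.1, no filter or a mean of at least 5, a replicate block, samples left out, equal totals, and edgeR 4.0.16 and DESeq2 1.42.0 on recovered reads. Coordinates of genes are those of GENCODE on GRCm38.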

Additional observations from a re-analysis of the deposited data

Results flagged for a closer look

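Of 86 groups of 4 samples examined for the named genes, 6 held a sample far from the other 3 by Dixon's test, which flags about 5% of groups by chance. Hspa1a was at 516.4 normalised counts in control replicate 4, where the next value was 316.5, and Hspa9 was at 349.9 in the same library, with 309.0 next. In p16 replicate 2, Pdia6 was at 1097.0 (next 750.0), Calr at 1811.4 (next 1288.1) and Hspa2 at 28.9 (next 25.5). Dnajc3 was at 183.4 in p16 replicate 4, against 234.2 to 240.3 in the other p16 samples.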

How the results depend on the processing

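No difference changed direction while called, in 17 alternatives. Of 850 values, 820 stayed on their side of the threshold or, for counts and the median, close to the reported value. No gene of the set was called under any alternative except Hspa4l with a replicate block (adjusted p = 0.0263), which gave 1 called lower. Same-numbered samples did not deviate together (correlations 0.05, 0.00, 0.05 and 0.08), so the numbers were not taken as pairs. With equal totals, 3 genes of the set were lower at an unadjusted p under 0.05. The median was then -0.01 and 1 related gene (Sesn2) was called higher. DESeq2 called 1 related gene higher. Leaving out replicate 3 of both groups left 1 related gene called lower. With each sample left out in turn, 1 to 4 genes of the set were higher and 3 to 8 lower at an unadjusted p under 0.05. The median ran from -0.07 to -0.02 in these fits, and 0 to 1 related genes were called higher and 1 to 2 lower. The lost call was Cebpb, which fell short in 7 alternatives. The signs of 12 of the 41 named genes changed in some alternative, without a call. For the tested genes outside the 57 whose intervals lay within 1.5-fold, a change of that size was not excluded, and the 14 untested genes had too few reads. Over all genes, 493 were called, 223 without replicate 3 of both groups, 263 without control replicate 1 and 261 without p16 replicate 1.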
